A study of Mus musculus with 3 samples.

Results

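The heat shock genes examined here were Hspa1a, Hspa1b, Hsph1, Dnajb1, Hspb1, Hsp90aa1, Hspa8, Hspd1, Hspe1 and Bag3. They are the stress-induced chaperones and co-chaperones of the cell, set beside Hspa8, the Hsp70 that is made without stress. The members were chosen by name, as every non-control probe whose gene name on the array was 1 of these 10. Of the 10, 9 are among the 34796 gene names of the array and had a probe named for them, with 14 of the 55679 probes. No probe was named for Hspa1b. The probe named Hspa1a lists accessions of both genes in the array's annotation, so its signal belongs to Hspa1a and Hspa1b together.

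The arrays held RNA from spleens of C57BL/6J mice that carried a small islet graft. Every recipient was a streptozotocin-diabetic male mouse that was given 25 syngeneic islets into the spleen and 100 beneath the kidney capsule. Spleens were taken just after grafting (day 0), 2 days later (day 2), or on day 139 from mice whose kidney graft had been removed by nephrectomy on day 100. The day 139 mice were therefore older by the time between grafting and harvest, had lost a kidney, and no longer carried the capsular graft. The sample labels name the capsular graft only for the day 139 spleen, whereas the treatment protocol gives it for all 3. Each time was measured on 1 array, and the number of mice behind an array is not given in the sources used here. An ungrafted spleen was not analysed here, so the day 0 spleen, which had just been operated on, was the reference. With 1 array per time no difference has a replicate check, and no p-value was computed.

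Heat shock proteins bind unfolded polypeptides and help them to fold or to be degraded. When unfolded protein accumulates, after heat, oxidants, ischemia or handling of tissue, heat shock factor 1 (encoded by Hsf1) is released, binds repeats of the sequence nGAAn upstream of these genes and raises their transcription. In the spleen they are made in several cell types, among them lymphocytes, macrophages and stromal cells, at levels that differ between types. The products of Hspd1 and Hspe1 act in mitochondria rather than the cytosol, although both genes are induced by heat shock.

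Values are quantile normalized signals on a linear scale and log2 ratios between arrays. A gene with several probes was represented by the brightest one. A gene was called lower or higher by the cutoffs of the study, which are a ratio of at most 0.66 with a Z-score of at most −2, or a ratio of at least 1.5 with a Z-score of at least 2. How the study computed its Z-score is not given in the sources used here. Here it is the log2 ratio divided by the standard deviation of that value among 1000 probes of the most similar mean signal. It therefore sets a probe against probes of like brightness and says nothing about the spread between mice. All 14 member probes were well above background on all 3 arrays, none was saturated, and each was printed as a single spot.

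The sequences of a pair of Hsp70 probes were compared. The first probe below is the one named Hspa1a (mm9 chr17:35107117-35107176, minus strand), and the second is an Hspa8 probe whose mm9 positions, chr9:40612755-40613050, span 296 bases for a probe of 60, so that it lies across an intron. Capitals mark the longest run of bases that the pair share, which is 9 bases long.
Hspa1a: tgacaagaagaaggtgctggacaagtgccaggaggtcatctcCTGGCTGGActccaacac
Hspa8: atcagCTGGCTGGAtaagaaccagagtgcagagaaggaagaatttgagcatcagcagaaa
The run lies near the end of the Hspa1a probe and near the start of the Hspa8 probe, so placed on it the pair overlap only in part. Its length therefore depends on where the probes lie and does not show whether they separate the genes. The inducible genes Hspa1a and Hspa1b are read by the same probe. The probes were compared with each other and not with transcripts, so cross-hybridization of Hspa8 RNA to the Hspa1a probe was not tested. The printed Hspa8 probe is also not the brightest one, which represents that gene below.

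Of the 10 genes, 8 had a promoter window in the RefSeq table used (GRCm38.p6, 250 bases before to 50 after a transcript start). Hsp90aa1 and Hspa8 are not in it. Pairs of inverted heat shock units were searched as GAANNTTC and TTCNNGAA, each of which is its own reverse complement, so that both strands were covered. At least 1 such pair was present in a window of 7 of the 8 genes, all except Dnajb1. Over the table, 4946 of 32851 windows held one (15.1%), a share per window and not per gene. Hsph1, Dnajb1 and Hspd1 had 2 windows each, and in Hspd1 1 of the 2 held a pair. In Bag3 the pair lay downstream of the start. A run of 3 units, GAANNTTCNNGAA or its reverse complement TTCNNGAANNTTC, contains the shorter pair. It was present in Hsph1 (downstream of the start), Hspd1 and Hspe1, and in 198 of all windows (0.603%). In Hspd1 and Hspe1 the matches are the same bases of overlapping windows, read from opposite strands. That site is counted for both genes, here and in the 7 of 8 above. Stretches upstream of the starts of 4 genes are printed because these genes span the range of responses described next, from the lowest ratios (Hspa1a and Hspb1) to ratios near 1 (Hspe1). Capitals mark the matches.
Hspa1a (chr17:34972157-34972306, minus strand): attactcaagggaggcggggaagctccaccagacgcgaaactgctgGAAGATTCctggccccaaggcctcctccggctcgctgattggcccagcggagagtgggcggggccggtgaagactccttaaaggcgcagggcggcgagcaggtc
Hspb1 (chr5:135887769-135887918, plus strand): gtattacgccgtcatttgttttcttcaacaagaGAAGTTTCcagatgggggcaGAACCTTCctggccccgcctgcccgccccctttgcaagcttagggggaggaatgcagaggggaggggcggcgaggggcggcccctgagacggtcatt
Hsph1 (chr5:149636337-149636396, minus strand): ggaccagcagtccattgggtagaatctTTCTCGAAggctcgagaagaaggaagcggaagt
Hspe1 (chr1:55088055-55088084, plus strand): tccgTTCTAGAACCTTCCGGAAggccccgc
The Hspa1a match begins 104 bases upstream of the start, those of Hspb1 117 and 97 bases upstream, and the overlapping matches of Hspe1 89, 84 and 79 bases upstream. The windows of Hspa1a and Hspa1b differ at 4 of 300 positions, and both hold the match at the same distance. A match to these letters is a description of the window and not evidence of binding in these spleens.

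The inducible Hsp70 and the small heat shock protein gave the widest differences of the 9 measured genes between spleens. Hspb1 encodes Hsp27 (called Hsp25 in mice), an oligomeric chaperone without ATPase activity that holds unfolded proteins and binds actin filaments. The signal of its probe (mm9 chr5:136365366-136365425) was 16236 on day 0, 5556 on day 2 and 3055 on day 139. The order was thus day 0 above day 2 above day 139. On day 2 it was 2.92-fold lower than on day 0 (log2 ratio −1.55, Z −3.30), and 2.28% of detected probes had a lower log2 ratio. On day 139 it was 5.31-fold lower than on day 0 (log2 ratio −2.41, Z −4.31). Between day 2 and day 139 the further difference was 1.82-fold (log2 ratio −0.86, Z −1.48), which is not past the criteria. The error that the scanner software propagates for these log2 ratios was 0.20, which covers the measurement of the spot and not the variation between mice.

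Hspa1a and Hspa1b encode the stress-inducible Hsp70, which is low in unstressed tissue and is among the most strongly heat-induced messages known. The shared probe gave 115 on day 0, 54.2 on day 2 and 22.8 on day 139. This is the same order of days as for Hspb1. On day 2 the signal was 2.13-fold lower than on day 0 (log2 ratio −1.09, software error 0.22). Its Z-score of −1.62 did not pass, because probes of its brightness scattered more widely, with a standard deviation of 0.67 on the log2 scale against 0.47 around Hspb1. On day 139 it was 5.05-fold lower than on day 0 (log2 ratio −2.34, software error 0.33, Z −2.87) and 2.37-fold lower than on day 2 (log2 ratio −1.25, Z −1.53).

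The Hspa1a probe was dim, and the size of its ratio depended on the background subtraction. Before background was removed its mean brightness was 196 on day 0, 133 on day 2 and 95.0 on day 139, over a local background of 63, 61 and 62. With the normexp background correction in place of the scanner's own subtraction, the log2 ratio became −0.60 for day 2 over day 0 and −1.08 for day 139 over day 0. The day 139 call held under each of the 13 alternative settings tried, and the day 2 call appeared under 3 of them. For Hspb1 both calls against day 0 held under all 13, and its log2 ratio lay between −1.55 and −1.47 on day 2 and between −2.41 and −1.99 on day 139.

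**Figure D1:**
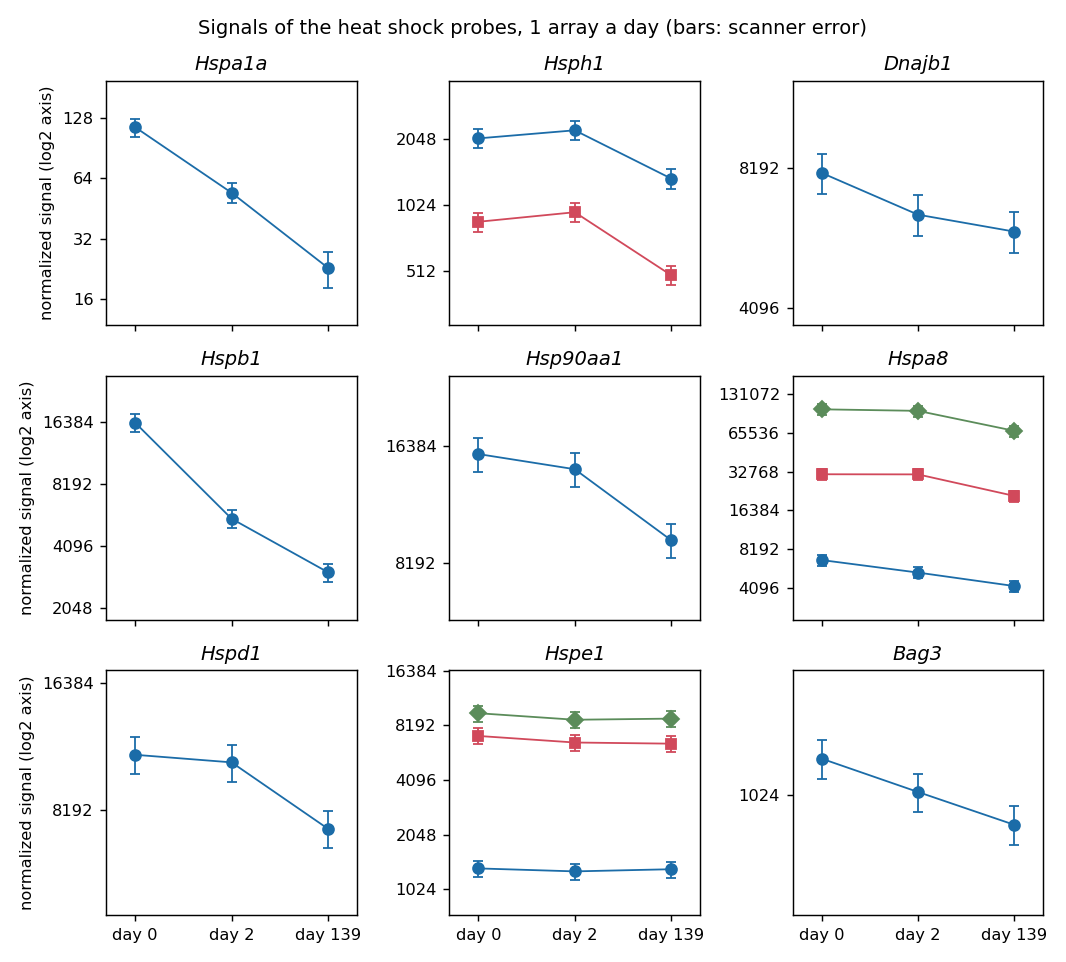
Normalized signal (log2 axis, a separate scale in each panel) of the 14 probes of the 9 measured heat shock genes on the day 0, day 2 and day 139 arrays. Each point is 1 spot on 1 array, bars are the scanner software's error, and colours separate probes of a gene. Hspb1 runs from 16236 to 3055 and Hspa1a from 115 to 22.8, while the probes of Hspe1 stay close to level.

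Counted together, 1 of the 9 measured genes was called lower on day 2 than on day 0 (Hspb1) and 0 higher. Over the 22851 genes detected on at least 1 array, 2.88% were called lower and 2.20% higher. On day 139 against day 0, 2 of 9 were called lower (Hspb1 and Hspa1a) and 0 higher, where 2.45% of all genes were lower and 3.00% higher. On day 139 against day 2, 0 of 9 were called in either direction, against 1.96% lower and 2.80% higher. By the ratio limit alone, without the Z-score, 2, 4 and 4 of the 9 were lower in these 3 comparisons, beside 9.87%, 13.7% and 13.5% of all genes, and 0 of the 9 were higher, beside 9.94%, 13.6% and 12.8%. The day 139 counts rest on the scaling. With each array scaled to its spike-in RNAs, Hsph1 and Hsp90aa1 no longer met the limit on day 139. Their log2 ratios were then −0.21 and −0.34 against day 0, and −0.34 and −0.33 against day 2. Hspb1, at −0.50, no longer met it against day 2. The shares of all genes under that scaling are not given here. The median log2 ratio of the 9 genes was −0.13 for day 2 over day 0, −0.59 for day 139 over day 0 and −0.53 for day 139 over day 2, where the medians of all genes were 0.02, −0.00 and −0.03. The comparisons with day 0 share the day 0 array and are not independent of each other.

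Among the co-chaperones of Hsp70, no gene passed the criteria. Dnajb1 encodes Hsp40, the J-domain protein that hands clients to Hsp70 and stimulates its ATPase. The signals of its probe (mm9 chr8:86135660-86135719) were 8015, 6511 and 5985 on days 0, 2 and 139, and its log2 ratios to day 0 were −0.30 on day 2 and −0.42 on day 139. Bag3, a nucleotide exchange factor that routes Hsp70 clients to autophagy, had 1 probe (mm9 chr7:135690281-135690340) with signals of 1234, 1038 and 875 and log2 ratios of −0.25 and −0.50. Both genes thus followed the day order of Hspb1, with smaller differences. With each array scaled to its spike-in RNAs instead of quantile normalization, the day 139 values shrank to −0.05 for Dnajb1 and −0.09 for Bag3, and the values of day 139 over day 2 became 0.17 and 0.15 in place of −0.12 and −0.25.

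Hsph1 encodes Hsp110, a large relative of Hsp70 that acts as its exchange factor and takes part in disaggregation. With quantile normalization it was the only measured member with a higher signal on day 2 than on day 0, though Hspa8 and Hspd1 also came out above 0 with 75th percentile scaling (0.05 and 0.04) and spike-in scaling (0.03 and 0.01), and Hsp90aa1 with the former (0.00). The brighter probe (mm9 chr5:150419744-150419803) gave 2055, 2237 and 1347, and the other (chr5:150420110-150420169) gave 855, 945 and 487. The log2 ratios of day 2 over day 0 were 0.12 and 0.14, both under the software error of 0.20. For day 139 they were −0.61 and −0.81 against day 0 and −0.73 and −0.96 against day 2. Both probes therefore placed day 139 below the other days, the first with a Z-score of −1.10 and the second of −1.39 against day 0. With spike-in scaling the brighter probe gave −0.21 against day 0, about the size of the software error, and −0.34 against day 2.

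Hsp90aa1 is the inducible cytosolic Hsp90, which keeps kinases and steroid receptors in a form that can be activated, and holds heat shock factor 1 inactive. Its probe (mm9 chr12:111929248-111929307) gave 15661, 14304 and 9362. Day 0 and day 2 differed by a log2 ratio of −0.13, within the software error. Day 139 was 1.67-fold lower than day 0 (log2 ratio −0.74, Z −1.31). With spike-in scaling that log2 ratio was −0.34. Hsp90ab1, the constitutive Hsp90, had signals of 44072, 32738 and 37474, with log2 ratios of −0.43 on day 2 and −0.23 on day 139 against day 0. The inducible form was therefore lowest on day 139 and the constitutive form on day 2, and neither passed the criteria.

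Hspa8 encodes Hsc70, the constitutive cytosolic Hsp70 that folds new proteins and uncoats clathrin. Its brightest probe (mm9 chr9:40613223-40613282) gave 99948, 97244 and 68021. The probe across the intron gave 31308, 31235 and 21253, and the third probe (chr9:40611142-40611201) gave 6757, 5401 and 4243. The first pair put day 2 level with day 0, with log2 ratios of −0.04 and −0.00, while the third gave −0.32. All 3 probes were lower on day 139, with log2 ratios to day 0 of −0.56, −0.56 and −0.67, and Z was −1.32 for the brightest. With spike-in scaling the brightest probe's value was −0.00, so the direction of Hspa8 on day 139 rests on the scaling.

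A difference of log2 ratios between genes cancels a single factor that scales a whole array, though quantile normalization acts differently at different signals. Relative to Hspa8, Hspb1 was lower by a log2 difference of −1.51 and Hspa1a of −1.05 for day 2 over day 0, while Hsph1, Dnajb1, Hsp90aa1, Hspd1, Hspe1 and Bag3 lay between −0.26 and 0.16. For day 139 over day 0 the values were −1.85 for Hspb1 and −1.78 for Hspa1a, and −0.19 to 0.46 for the other 6. For day 139 over day 2 they were −0.35 for Hspb1 and −0.73 for Hspa1a, and −0.22 to 0.54 for the other 6. The median over the 8 genes was −0.15, −0.04 and −0.05. With 75th percentile or spike-in scaling the day 139 medians were −0.21 against day 0 and −0.25 against day 2, and with normexp background correction 0.08 and 0.07, so they have no settled direction. Over 9 alternatives Hspb1 stayed below Hspa8 by −1.52 to −1.49 on day 2 and by −1.99 to −1.79 on day 139 against day 0. Hspa1a stayed below it by −1.15 to −0.56 and by −1.98 to −0.47, with the smallest differences under normexp, but for day 139 over day 2 it ran from −0.84 to 0.09. The other 6 genes were set against the combined software error of 0.29. For day 139 over day 0, Hsph1, Dnajb1, Hspd1 and Bag3 never differed from Hspa8 by more, and for Hsp90aa1 it depended on the setting. For day 139 over day 2 it depended on the setting for Hsph1, Dnajb1, Hsp90aa1 and Bag3, and Hspd1 never differed by more. Hspe1 was above Hspa8 by 0.31 to 0.59 against day 0 and by 0.36 to 0.61 against day 2.

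**Figure D2:**
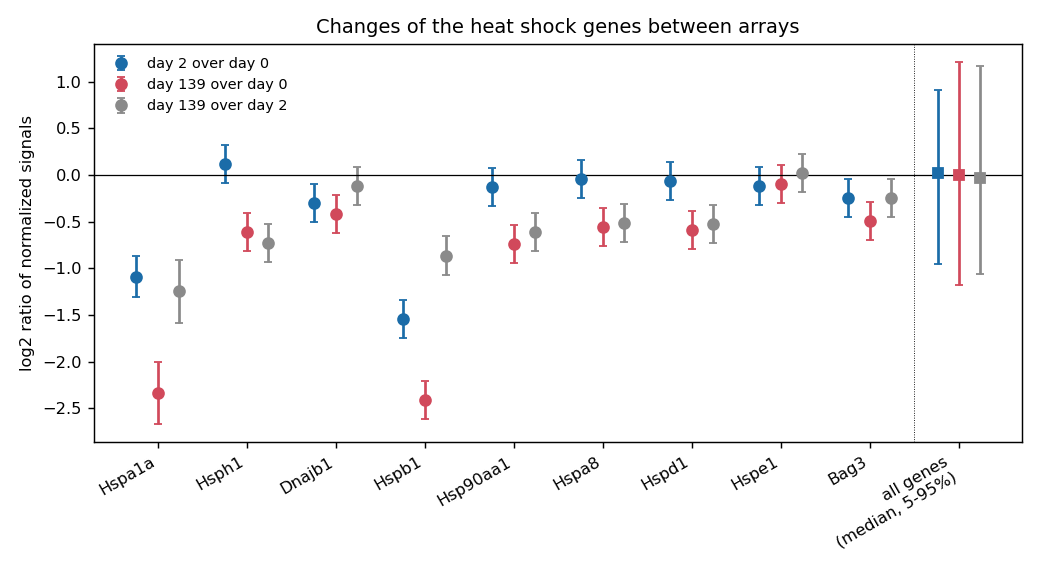
Log2 ratios of normalized signals for the brightest probe of each measured heat shock gene in the 3 comparisons, with bars for the scanner software's error. At the right, squares and bars give the median and the 5th to 95th percentiles over all 22851 detected genes. Hspb1 and Hspa1a lie below the 5th percentile (−0.96 for day 2 over day 0, −1.17 for day 139 over day 0) in both comparisons with day 0, and the other members lie within the percentiles. With spike-in scaling all day 139 values move up, and those of Hspa8, Bag3, Dnajb1 and Hspe1 reach or cross 0 in at least 1 comparison or come within the error of it.

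Hspd1 and Hspe1 encode Hsp60 and Hsp10, the barrel and the lid of the mitochondrial chaperonin, and are transcribed head to head from a shared promoter region. Their windows in the RefSeq table overlap. Hspd1 (probe at mm9 chr1:55134697-55134756) gave 11062, 10612 and 7374. The brightest Hspe1 probe (mm9 chr1:55148026-55148085) gave 9560, 8801 and 8928, and the others gave 7166, 6593 and 6498, and 1335, 1286 and 1321. Day 2 differed little from day 0 for both genes, with log2 ratios of −0.06 for Hspd1 and −0.12 for Hspe1. On day 139 the log2 ratios to day 0 were −0.59 for Hspd1 (Z −1.02) and −0.10 for Hspe1 (Z −0.17), neither past the criteria. The other Hspe1 probes gave −0.14 and −0.01. The log2 ratio of Hspe1 exceeded that of Hspd1 by 0.49 against day 0 and by 0.55 against day 2, beside a combined software error of 0.29. That error leaves out variation between mice. Log2 ratios to day 0 of probes of like signal had a standard deviation of 0.57 around Hspd1 and 0.56 around Hspe1. With spike-in scaling the values against day 0 were −0.22 for Hspd1 and 0.30 for Hspe1, so that the gap was kept while the direction of Hspe1 turned.

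Against day 0, other genes of the heat shock pathway that were above background differed less than Hspb1 and Hspa1a. Spike-in scaling raised the median of all genes to 0.37 for day 139 over day 0 and moved day 139 values up. The shift differed between genes, and Hspa8 went from −0.56 to −0.00. Negative day 139 values up to about that size, in this list and those that follow, therefore have no settled direction. Hsf1 itself gave 709, 730 and 774, with log2 ratios to day 0 of 0.04 and 0.13. Of 8 heat shock factors and regulators, 0 were called in any comparison, and their medians were 0.09 for day 2 over day 0, −0.05 for day 139 over day 0 and −0.09 for day 139 over day 2. On day 2, Hspbp1, an Hsp70 exchange factor, was highest at 0.29 and Hdac6, a deacetylase of Hsp90, lowest at −0.24 among those measured above background. Hspbp1 was also lowest on day 139, at −0.27 against day 0 and −0.56 against day 2, and Hdac6 was highest against day 2 at 0.16. Hsf4 was not well above background on days 0 and 2, and its day 139 signal of 22.7 lay near the lowest signal well above background there, 18.2. By the bounds used here it was 1.64-fold higher than on day 0 and 1.62-fold higher than on day 2. The value against day 0 equals the plain ratio to a signal not above background, and Hsf4 was not called (Z 0.44 and 1.33).

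The 14 other targets of heat shock factor had medians of 0.08, −0.24 and −0.32 in the same 3 comparisons. On day 2, 12 of 14 were above 0, led by Serpinh1, the collagen chaperone Hsp47, at 0.75 and ending with Dnaja1, an Hsp40 of the cytosol, at −0.41. Serpinh1 was the single gene of this list that was called, with signals of 1882, 3174 and 1036 and a log2 ratio of −1.61 for day 139 over day 2 (Z −2.91). Against day 0 its day 139 value was −0.86, the lowest of the list, and Cryab, a small heat shock protein of the same family as Hspb1, was highest at 0.17. Cryab gave 909, 1391 and 1023, so on day 2 it differed in direction from Hspb1, without being called (Z 1.39). Hspb8, also a small heat shock protein, gave 199, 207 and 138, with a log2 ratio of 0.06 on day 2. Dnaja1 was highest for day 139 over day 2, at 0.04.

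The 15 constitutive cytosolic chaperones, which include the TRiC subunits, had medians of −0.11, −0.23 and −0.14, with 0 called in any comparison. On day 2 they ran from −0.43 (Hsp90ab1) to 0.11 (Cdc37, a kinase co-chaperone of Hsp90). On day 139 they ran from −0.43 (Cct3, a TRiC subunit) to 0.22 (Dnajc7, a co-chaperone of Hsp70 and Hsp90) against day 0, and from −0.31 (Cct7, another TRiC subunit) to 0.22 (Dnajc7) against day 2. The 9 mitochondrial chaperones and proteases had medians of −0.05, −0.17 and −0.02, again with 0 called. Their lowest values were −0.33 for Dnaja3 on day 2, −0.36 for Hspa9, the mitochondrial Hsp70, on day 139 against day 0, and −0.44 for the protease Lonp1 against day 2. Their highest values were 0.22 for Timm44, a partner of the import motor, on day 2, and 0.20 and 0.44 for the exchange factor Grpel2 on day 139 against day 0 and day 2.

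The endoplasmic reticulum chaperones, which answer to the unfolded protein response rather than to heat shock factor, did not show the pattern of Hspb1. Their 15 genes had medians of 0.04, 0.18 and 0.13, and 0 were called. Hspa5 (BiP), the Hsp70 of that compartment, was level at 20973, 20276 and 20276. On day 2 the list ran from −0.70 (Dnajb9, a co-chaperone of BiP) to 0.41 (Calr, calreticulin). On day 139 it ran from −0.13 (Canx, calnexin) to 0.81 (Creld2) against day 0, and from −0.26 (Calr) to 1.03 (Dnajb9) against day 2.

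Lists of other early stress genes had medians below 0 on both later days. Immediate early genes, which are transcribed within minutes of many stimuli, had medians of −0.50, −0.57 and −0.16 over 12 genes. The numbers called lower were 1, 3 and 0, and none was called higher. Ier3, an early gene that modulates cell death, gave 670, 229 and 183, with log2 ratios of −1.55 on day 2 and −1.87 on day 139 against day 0. Junb, an AP-1 subunit, gave 142, 64.3 and 57.8, and Dusp1, a phosphatase of MAP kinases, gave 1543, 1247 and 599, and both were called on day 139 with log2 ratios of −1.29 and −1.36 to day 0. Dusp1 was also lowest for day 139 over day 2, at −1.06. The list was not uniform, since Fosb stood at 0.47 on day 2 and Nr4a1 at 0.23 and 0.74 on day 139 against day 0 and day 2.

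The oxidative and metal stress genes held the widest differences of the stress lists, with medians of −0.54, −0.89 and −0.36 over 8 genes. Called lower were 3 on day 2 and 3 on day 139 against day 0, and 2 on day 139 against day 2. The metallothioneins bind zinc and copper and are induced by metals and glucocorticoids. Mt1 gave 79677, 19341 and 9257, with log2 ratios to day 0 of −2.04 and −3.11, and Mt2 gave 74246, 17505 and 5821, with −2.08 and −3.67. Hmox1, the heme oxygenase that degrades heme and is abundant in red pulp macrophages, gave 35150, 11015 and 16617, with −1.67 and −1.08. Hmox1 was thus lowest on day 2, unlike the metallothioneins, Hspb1 and Hspa1a, which were lowest on day 139. Nqo1 was highest of the list on day 2 at 0.22, and Sqstm1, an autophagy receptor, was highest on day 139 against day 0 at −0.02.

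**Figure D3:**
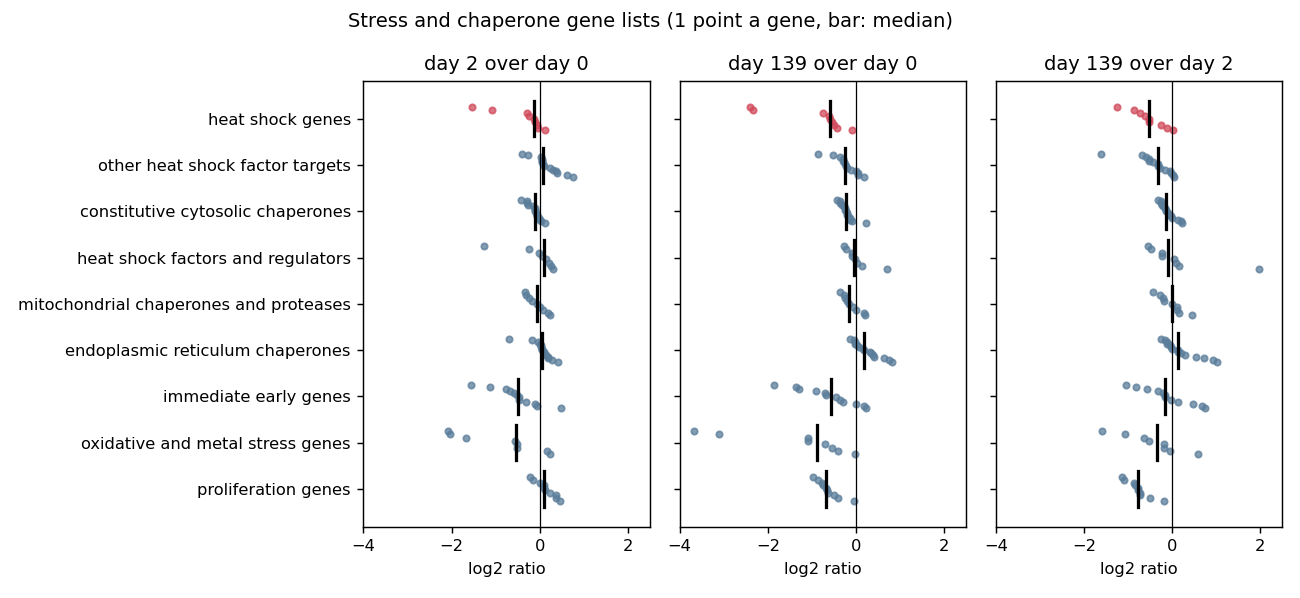
Log2 ratios of single genes (points) and list medians (bars) for the heat shock genes, in red, and for 8 other stress, chaperone and proliferation lists, in the 3 comparisons. The heat shock genes have medians of −0.13, −0.59 and −0.53 and the endoplasmic reticulum chaperones of 0.04, 0.18 and 0.13, while the lowest single values belong to Mt1 and Mt2 in both comparisons with day 0 and to Serpinh1 and Mt2 for day 139 over day 2. The point near 2 among the regulators for day 139 over day 2 is Hsf4, which was not well above background on day 2. With spike-in scaling all day 139 points would move up, since the median of all genes becomes 0.37 against day 0.

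Genes whose profile over the 3 arrays lay nearest to that of Hspa1a were Thbs1, Adamts15, Adamts9, Rgs4 and Ms4a6d, by the root mean square distance of median-centred log2 signals among 12471 genes. The distances were 0.09, 0.09, 0.10, 0.11 and 0.12. Thbs1, which encodes the matrix protein thrombospondin 1, gave 3164, 1589 and 726, and Ms4a6d gave 1417, 594 and 272. Adamts15 and Adamts9, secreted metalloproteases of the extracellular matrix, gave 161, 80.2 and 30.8, and 376, 199 and 83.5. Rgs4, a regulator of G protein signaling, gave 92.9, 49.6 and 21.6. With 3 points per profile, many genes lie close by, and the likeness describes the order and spacing of the days only.

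Signals of cell type markers also differed between the spleens. Cell composition was not measured, and in whole tissue fewer cells of a type and less RNA per cell cannot be told apart. The labelled tissue was borne out by B cell, T cell, erythroid and red pulp macrophage markers, all of which were well above background on all 3 arrays. Summed signals of 6 neutrophil markers were 208920, 73398 and 86173 on days 0, 2 and 139, and S100a8, S100a9 and Mmp9 were called lower on both later days, whereas the granule genes Ngp, Camp and Ltf were not called and had higher signals on both later days. The sum was carried by S100a8 and S100a9, so the list did not go one way. Camp, for example, gave 5295, 7500 and 8696. Summed signals of 6 B cell markers were 33335, 33796 and 71725, with 4 of 6 called higher on day 139 than on day 0, and those of the 6 T cell markers were 15665, 21057 and 31571. The 8 erythroid markers summed to 903460, 918197 and 866615, a sum carried by Hba-a1 and Hbb-b1, whose values lie at the top of the distribution that quantile normalization makes common. Within that list Ahsp, a hemoglobin chaperone, was called lower on day 2 (log2 ratio −1.06, Z −2.55), and Klf1 had −1.06 on day 139 against day 0 without being called. The 5 of 6 red pulp macrophage markers that have a probe summed to 64130, 70956 and 67246. Among them Spic, a transcription factor of these macrophages, gave 13170, 4011 and 9906 and was called lower on day 2 than on day 0 (log2 ratio −1.72, Z −3.63) and higher on day 139 than on day 2 (1.30, Z 2.31), while the other 4 were above 0 on day 2. S100a8, S100a9, Mmp9 and Spic shared with Hspb1 a high on day 0, and the B cell sum had its high on day 139, when Hspb1 and Hspa1a were lowest. Their part in the heat shock values was not tested.

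Smooth muscle, a tissue known for abundant Hspb1, had its highest marker signals on day 2. Summed signals of the 6 smooth muscle markers were 25316, 80358 and 21656, with 5 of 6 called higher on day 2 than on day 0. Acta2, the smooth muscle actin, gave 3364, 24804 and 3500. All 6 were called lower on day 139 than on day 2. Hspb1 was lower on day 2 than on day 0, where these markers were higher, and lower on day 139 than on day 2, where they were lower too, and their part in its values was not tested. Islet markers summed to 62723, 102546 and 32748 over 8 genes, a sum carried by Ins1 and Ins2. Of the 8, 6 were called higher on day 2 than on day 0 (median log2 ratio 2.06) and 8 lower on day 139 than on day 2, when Ppy and Pcsk1 were no longer well above background. Exocrine pancreas markers summed to 962, 732 and 1322 over 7 genes, of which Cela1 made up most on days 0 and 2. On day 139 against day 0, 3 of the 7 were called higher (Amy2a5, Cpa1 and Cpb1), Amy2a5 with signals of 21.3, 43.4 and 404, and Cpa1, Cpb1, Prss2 and Pnlip were not well above background on days 0 and 2. All 10 proliferation genes were below 0 in both day 139 comparisons with quantile normalization, with medians of 0.10, −0.67 and −0.77 in the 3 comparisons, and Birc5 (21539, 27638 and 12864) was called lower for day 139 over day 2. Mki67, a marker of cycling cells, had the lowest value against day 0 at −0.98 and Tk1, a thymidine kinase, the lowest against day 2 at −1.14, while Aurkb was not well above background on days 0 and 139. The moderate day 139 values of Hsp90aa1, Hspa8, Hspd1 and Hsph1 were of similar size to that proliferation median, and the part of proliferation in them was not tested.

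Among detected genes with a promoter window, median log2 ratios lay within 0.03 of 0 both with and without a pair of units. The 1609 detected genes with GAANNTTC or TTCNNGAA in a promoter window had median log2 ratios of 0.01, −0.01 and −0.00 for day 2 over day 0, day 139 over day 0 and day 139 over day 2, and the 9445 without had 0.03, 0.00 and −0.03. Called lower on day 139 against day 0 were 3.05% of the genes with the pair and 2.10% of those without. The 68 genes with a run of 3 units had medians of 0.09, −0.02 and −0.05. Within the 8 members of the promoter table, Hsph1, Hspd1 and Hspe1 held a run of 3 units and had ratios of day 2 over day 0 near 1. The run of Hspd1 and that of Hspe1 are a single shared site, so these genes are not separate cases of it. Hspb1 held separate pairs and had a ratio of 0.34. Bag3, with a single pair, had a ratio of 0.84 and Dnajb1, with none, a ratio of 0.81, while Hspa1a, also with a single pair, had 0.47. For day 139 over day 0 the ratios were 0.66 for Hsph1, 0.67 for Hspd1 and 0.93 for Hspe1. Those of Hspb1, Hspa1a, Bag3 and Dnajb1 were 0.19, 0.20, 0.71 and 0.75. A link between the form of the match and the ratio was not tested.

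**Figure D4:**
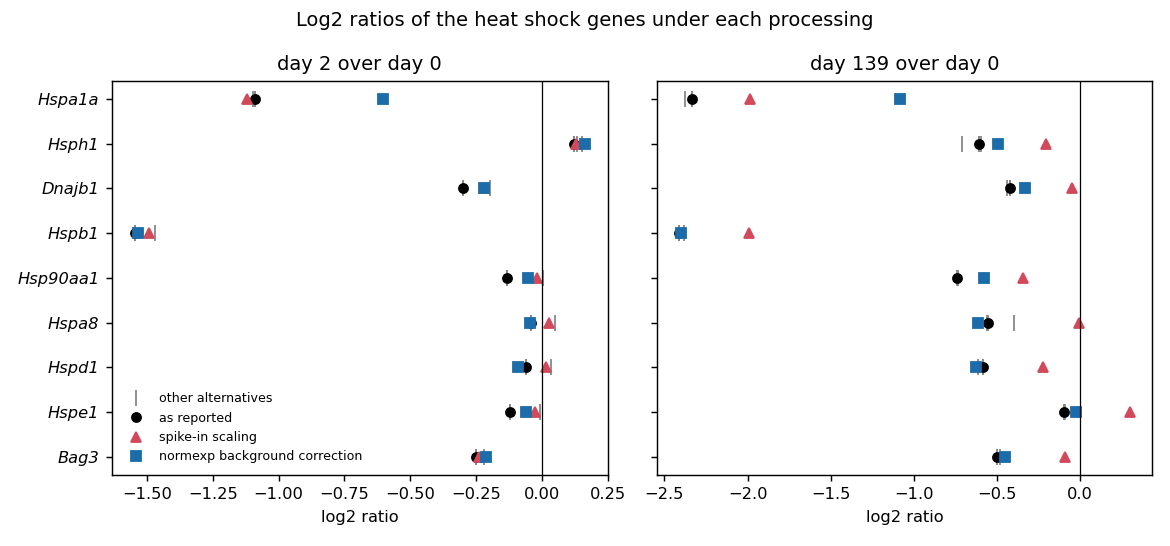
Log2 ratio of each measured heat shock gene as reported (black), with spike-in scaling (red triangles), with normexp background correction (blue squares) and under the other settings (grey ticks), for day 2 over day 0 and day 139 over day 0. Hspb1 lies between −1.55 and −1.47 and between −2.41 and −1.99, Hspa1a moves up to −0.60 and −1.08 with normexp, and spike-in scaling moves all day 139 values up, to −0.00 for Hspa8 and 0.30 for Hspe1.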

How the data were processed

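Islet-bearing spleen at 3 times was measured on 3 one-colour Agilent arrays of mouse genes (mm9 probe positions). Per the labels, RNA was isolated with TRIzol and an SV Total RNA Isolation System, whereas the study's methods name another kit, which was not settled. The authors deposited scanner output holding the intensity of each spot, background-subtracted by Feature Extraction, version 10.7.1.1 in the file headers and 9.5.1.1 in the submitters' processing notes. A deposited table of the authors' processed intensity, 1 row per probe, was an alternative: 55679 of 55681 rows matched these probes, each column had a median of 22.0, and the Pearson correlation was at least 0.999996 with the values computed here, on a linear scale.

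Control and outlier-flagged spots were left out, spots of a probe were averaged, and probes were quantile normalized, floored at 1 and taken to log2 (Python 3.11.15, numpy 2.4.6, pandas 2.3.3). The 32108 probes (22851 genes) flagged well above background by 1 array or more counted as detected. On the single arrays 54.4%, 53.8% and 50.4% of probes were well above background. The number of arrays limits the precision. Where 1 side was not well above background, a fold is a bound against the higher of the probe's own signal and the lowest signal well above background there.

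Genes named are the members with every probe, Hsf1, Hsp90ab1, Hspa5, list members past the criteria, list extremes in each comparison among those above background on both arrays, and the 5 genes nearest Hspa1a. Single marker genes, and the Cryab and Hspb8 signals, were named after their values were seen. Members and lists were chosen with earlier results of these data known. Calling was tested on simulated data. Alternatives were normexp with an offset of 50 (limma 3.58.1, R 4.3.3), 75th percentile or spike-in scaling (8 controls), the authors' values, a higher floor (the lowest detected signal), stricter detection (all arrays) or none, retention of outlier spots, the median of a gene's probes, a Z-score spread from 250 probes, from all probes or from a scaled median absolute deviation, and a ratio limit of 2 or 0.5. Promoter windows and gene names came from RefSeq tables of GRCm38.p6, which were not mixed with the mm9 positions.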

Additional observations from a re-analysis of the deposited data

How the results depend on the processing

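No paired analysis was possible because each time had 1 array. The count of heat shock genes called lower on day 2 against day 0 went from 1 to 2 with normexp background correction, with detection on all 3 arrays and with the scaled median absolute deviation, Hspa1a joining Hspb1 each time. The scaled median absolute deviation also raised the count for day 139 over day 2 from 0 to 3 (Hspa1a, Hsph1 and Hspb1). Spike-in scaling changed the median log2 ratio of the members from −0.59 to −0.21 for day 139 over day 0 and from −0.53 to −0.24 for day 139 over day 2. It turned Bag3 for day 139 over day 2 from −0.25 to 0.15. Under that scaling the median of all genes stood at 0.37 for day 139 over day 0 and 0.36 for day 139 over day 2, so relative to all genes the members stayed lower. Of 243 single-gene values under 9 alternatives, 222 moved by less than the software error, 20 moved by more, and 1, that of Bag3, changed sign from a value larger than that error. The detection settings, the higher floor, the authors' values and the kept outlier spots could hardly move a member ratio, so the 222 does not measure stability. The larger moves and the sign change came from normexp background correction and spike-in scaling alone. Signal over background limits Hspa1a, and the absence of replicate arrays limits every comparison.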
